A study of Mus musculus with 6 samples.

Results

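SNARE proteins and their regulators carry out the last step of membrane traffic, the fusion of a vesicle with its target membrane. Rows of the authors' deposited table were taken by gene symbol: syntaxins (Stx), syntaxin-binding proteins (Stxbp), vesicle SNAREs (Vamp), the SNAP25 family (Snap), synaptotagmins (Syt), synaptotagmin-like proteins (Sytl), and Sec22, Ykt6, Bet1 and Gosr. The pattern found 52 of the 16701 listed genes, of which 51 are protein-coding and 1, Stxbp3-ps, is a processed pseudogene. In the GENCODE M21 annotation 64 protein-coding symbols fit the pattern, and the other 13 are not analysed here, 9 of them synaptotagmins.

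The libraries were made from polyadenylated RNA of luminal epithelial cells of the mammary gland, the inner layer of the ducts. Of the 6 libraries, 3 came from wild-type control mice and 3 from Ocln knockout (Ocln-/-) mice, all 7 weeks old, and nothing else is stated to differ or to be shared between the groups. The labels do not say how the Ocln allele was made, whether it is deleted in the whole animal, how the cells were isolated, or whether each library is a separate mouse, so the p-values may measure technical spread only. The study asks about occludin and FIP5, a Rab11 partner, on endosomes of dividing cells.

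As background, fusion is driven by 4 SNARE helices that zip together, provided by a syntaxin, by a SNAP25-like protein or equivalents of it, and by a vesicle SNARE. Sec1/Munc18 proteins, which include several Stxbp members, guide the assembly, some synaptotagmins make it respond to calcium, and synaptotagmin-like proteins tether secretory vesicles through Rab27. In polarised epithelia syntaxin-3 serves the apical and syntaxin-4 the basolateral surface. Secretion of milk by luminal cells uses this machinery, and abscission at the end of cell division needs syntaxin-2 and VAMP8.

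No member passed the test of knockout against control. Of the 52 members, 0 passed DESeq2 at an adjusted p of 0.05 by the authors' deposited table, where 181 of all 16701 genes did (1.08 percent), and the lowest adjusted p of a member was 0.173, for Sytl2. At an unadjusted p under 0.05, 5 members (9.62 percent) were lower, against 3.83 percent of all genes, and 0 were higher, against 5.23 percent of all genes. The authors' own calls, which use the unadjusted p and a minimum fold change, held 1 member (1.92 percent), Syt3, called down, against 2.79 percent of all genes. The median log2 fold change of the members was -0.05, beside -0.01 over all listed genes, and 23 members (44.2 percent) had a positive value, beside 48.8 percent of all genes. In bulk RNA, fewer cells of a type and less RNA per cell cannot be told apart in any of these values.

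The intervals give what the data allow for each gene. The 95 percent interval, 1.96 SE on either side of the authors' log2 fold change and not adjusted for the number of genes, lay wholly within a 1.5-fold change in either direction for 27 of the 52 members (51.9 percent), beside 41.0 percent of all listed genes. Above a mean level of 200 normalized counts, the figures were 26 of 39 members (66.7 percent) and 64.1 percent of all genes. Below that level, where the median SE of the members was 0.35, 1 of 13 members, Stx1a, was bounded in this way. For the other 12 the interval does not leave out a change of 1.5-fold in at least 1 direction.

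**Figure D1:**
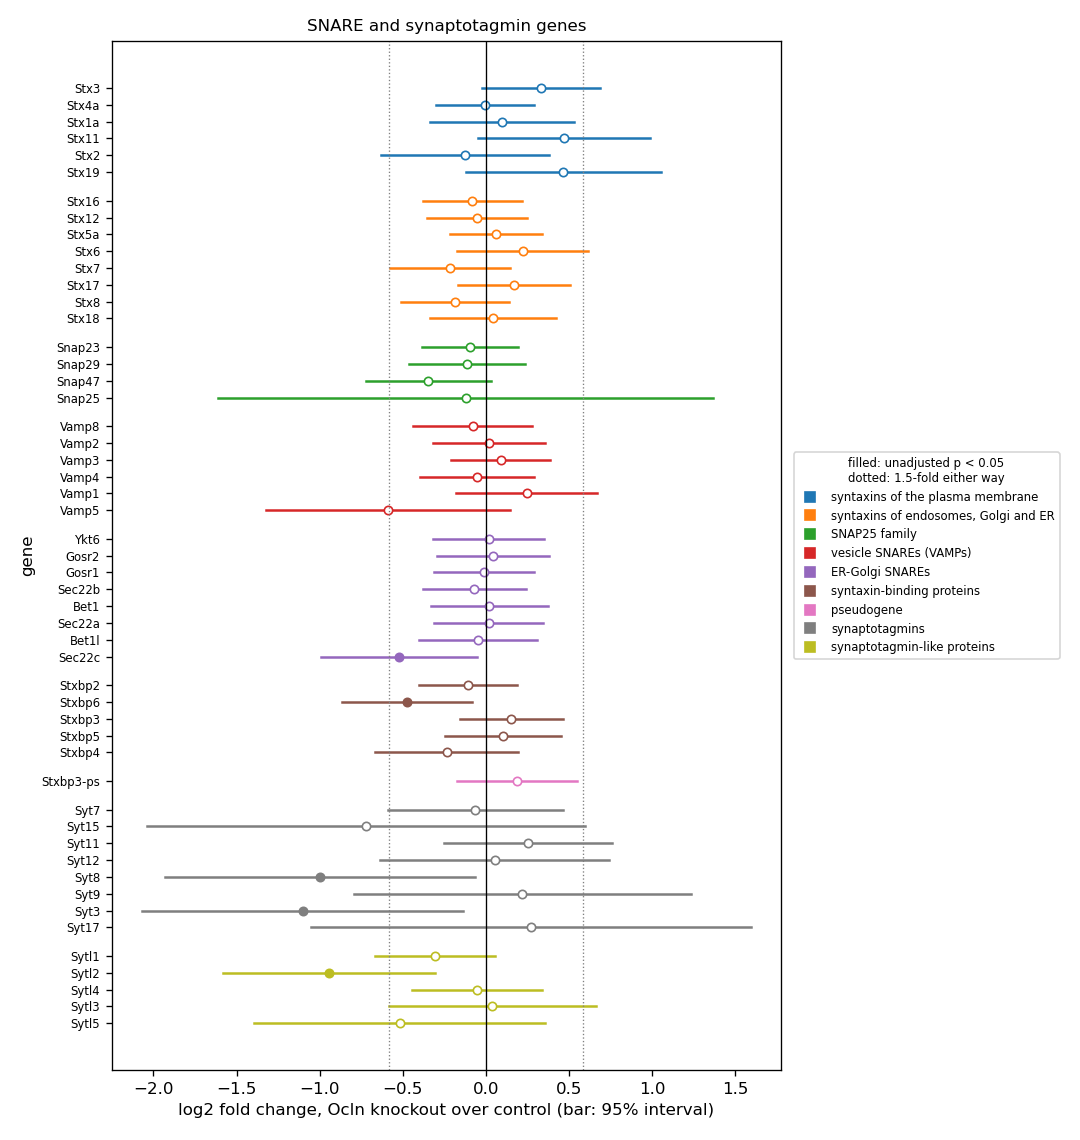
The log2 fold change of knockout over control is shown for 51 of the 52 members, grouped by role and ordered within a group by mean level, with a bar for the 95 percent interval; filled points have an unadjusted p under 0.05 and dotted lines mark 1.5-fold in either direction. The 5 filled points, Sec22c, Stxbp6, Syt8, Syt3 and Sytl2, all lie to the left of 0, and the bars of the ER-Golgi SNARE group other than Sec22c cluster around 0.

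Levels were compared between genes as mean normalized counts per kilobase (kb) of exon, averaged over all 6 libraries, and values per library were not used here, so the spread behind each order is not known. The median of the members was 147 per kb, beside 143 per kb over all listed genes with a length. Vamp8, the vesicle SNARE of regulated secretion and late endosomes, had the highest level at 1306 per kb, which places it above 92.6 percent of those genes. Next came Vamp3 of recycling endosomes at 1078 per kb, Stxbp2 at 1028 per kb, Vamp2 at 966 per kb and Stx4a at 963 per kb. The lowest was Snap25, the neuronal partner of syntaxin-1, at 5.16 per kb.

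Single genes held much of the summed level of several role groups. Stxbp2, the Munc18 protein that partners syntaxin-3 in epithelia, held 57.7 percent of the summed level per kb of the 6 syntaxin-binding proteins. Sytl1 held 77.8 percent of that of the 5 synaptotagmin-like proteins, with 859 per kb against 106 per kb for Sytl2, the next in order. Among the 6 plasma membrane syntaxins, Stx4a held 64.6 percent and Stx3 22.6 percent. Their mean levels were alike, 1483 and 1522 normalized counts, so this order rests on their merged exon lengths of 1539 and 4521 bases. Which isoforms were expressed is not known from these values. The other 4 plasma membrane syntaxins, Stx1a, Stx11, Stx2 and Stx19, lay between 34.3 and 85.2 per kb. Vamp8, Vamp3 and Vamp2 held 35.1, 28.9 and 25.9 percent of the summed level of the 6 listed VAMP genes, so no single gene of these 6 stood alone. Vamp7 is neither a listed gene nor among the annotated symbols that fit the pattern, so these shares leave it out.

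**Figure D2:**
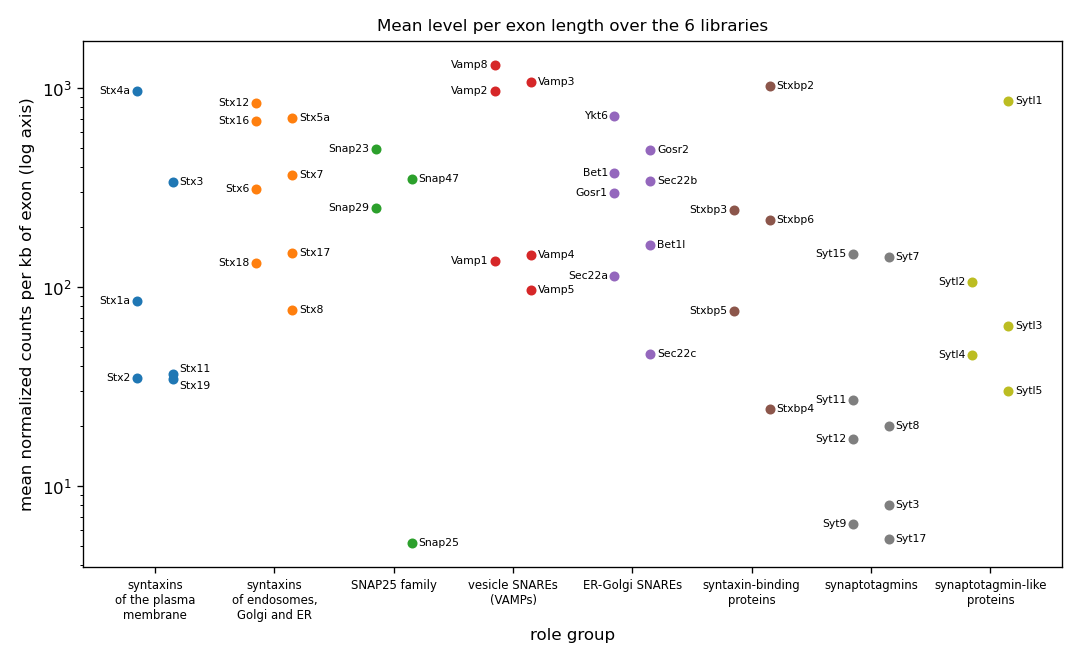
Mean normalized counts per kb of exon over the 6 libraries are shown on a log axis for 50 of the 51 protein-coding members, by role group; each point is a gene. The VAMP points fall into an upper set of 3, from 966 to 1306 per kb, and a lower set of 3, from 96.2 to 145 per kb, and the synaptotagmins other than Syt15 and Syt7 lie at or below 27.0 per kb.

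Syntaxins of the plasma membrane, which receive secretory vesicles, did not pass in either direction, and 4 of the 6 had positive values, with a group median of 0.21. Stx3, the apical syntaxin, had a log2 fold change of 0.33 ± 0.18 (SE) at a mean level of 1522 normalized counts in the authors' deposited table (adjusted p = 0.601). Its interval runs from 0.99 to 1.61 times the control level. Stx4a, the basolateral syntaxin, stood at 0.00 ± 0.15 at a mean level of 1483 in the same authors' deposited table (adjusted p = 0.996), with an interval of 0.81 to 1.22 times control. These are the abundant genes of the group, and the apical syntaxin has the higher point value, but the difference between them was not tested.

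Stx11, which works in the secretion of cytotoxic granules by lymphocytes, had the highest value of all members, 0.47 ± 0.26 at a mean level of 152 in the authors' deposited table (adjusted p = 0.616). Stx19 was close to it at 0.47 ± 0.30 and a mean level of 96.5 in the authors' deposited table (adjusted p = 0.71). Both intervals reach from just below the control level to about 2-fold above it, 0.97 to 1.99 times for Stx11 and 0.92 to 2.07 times for Stx19. Markers of myeloid cells were positive in the same comparison, 7 of 7 listed, with a median log2 fold change of 0.97, and only Ms4a1 of 6 lymphoid markers was listed. The part of such cells in the value of Stx11 was not tested. Stx1a, the neuronal syntaxin, stood at 0.10 ± 0.22, and Stx2 at -0.13 ± 0.26, in the authors' deposited table.

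Syntaxins of endosomes, the Golgi and the endoplasmic reticulum (ER) had values closer to 0 than those of the plasma membrane, without a test of that difference. The plasma membrane group had a lower median level, 168 against 1415 normalized counts, and a larger median SE, 0.24 against 0.17. Of the 8 genes of endosomes, the Golgi and the ER, 4 were positive and 4 negative, the median was -0.01, and 7 intervals lay within 1.5-fold. Stx16, a syntaxin of the trans-Golgi network, had -0.08 ± 0.15 at a mean level of 2645 normalized counts in the authors' deposited table (adjusted p = 0.953). Stx12, also called syntaxin-13, works on recycling endosomes, the compartment of Rab11, and had -0.05 ± 0.15 at 2482 normalized counts in the authors' deposited table (adjusted p = 0.969). Its interval bounds it between 0.78 and 1.19 times control.

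The values of Stx5a of ER-to-Golgi transport (0.06 ± 0.14) and of the ER syntaxin gene Stx18 (0.04 ± 0.19) were also near 0 in the authors' deposited table. Farther from 0 in the authors' deposited table were Stx6 of the trans-Golgi network (0.22 ± 0.20), and the late endosomal Stx7 (-0.22 ± 0.18) and Stx8 (-0.19 ± 0.17). Stx17, which brings lysosomes to autophagosomes, had 0.17 ± 0.17 in the authors' deposited table. Stx6 is the member of this group whose interval passes 1.5-fold, with an upper bound of 1.53 times control.

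Partners on the target membrane are the SNAP25 family, and all 4 listed members had negative values, from -0.35 to -0.10, with 0 past the test. Snap23, the form found in most cells, had -0.10 ± 0.15 at a mean level of 1368 normalized counts in the authors' deposited table (adjusted p = 0.942). Snap29, which acts with Stx17 on autophagosomes, had -0.11 ± 0.18 at a mean level of 861 in the authors' deposited table (adjusted p = 0.942). Snap47 was lowest with -0.35 ± 0.19 (adjusted p = 0.614), an interval of 0.61 to 1.02 times control, from the authors' deposited table. Snap25 had a mean level of only 11.5 normalized counts there, and its interval of 0.33 to 2.58 times control bounds little.

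Among the vesicle SNAREs, the abundant genes had narrow intervals around no change. Vamp8 had -0.08 ± 0.18 at a mean level of 3019 normalized counts in the authors' deposited table (adjusted p = 0.964), an interval of 0.74 to 1.21 times control. Vamp2, best known from synaptic vesicles, had 0.02 ± 0.17 at 2729 normalized counts in the authors' deposited table (adjusted p = 0.992). Vamp3, or cellubrevin, had 0.09 ± 0.15 at 2286 normalized counts in the authors' deposited table (adjusted p = 0.95). The median of the 6 genes was -0.02, and for 4 of them the interval lay within 1.5-fold.

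The remaining VAMP genes were less abundant. Vamp4 of the trans-Golgi network stood at -0.05 ± 0.18 and Vamp1 at 0.24 ± 0.22 in the authors' deposited table. Vamp5, known from muscle, was the lowest of the group at -0.59 ± 0.37 (adjusted p = 0.703) and a mean level of 260 in the authors' deposited table. Vamp5 and Vamp8 are neighbours on the minus strand of chromosome 6 in GRCm38, at 72368794 to 72380468 and 72385223 to 72390703, with 4754 bases between them. Vamp5 has an SE larger than 95.4 percent of the 500 genes nearest to it in mean level, whereas 64.0 percent of the genes nearest to Vamp8 have a smaller SE than Vamp8.

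The ER-Golgi SNARE group, of transport between the ER and the Golgi, had the values closest to 0 of the role groups. Its genes were placed by symbol and not by a SNARE motif, so Sec22a and Sec22c may not be SNAREs themselves. The median of the 8 genes was 0.00, and the median size of their log2 fold changes was 0.03. That size was 0.19 over all listed genes and 0.14 over those with a mean level of at least 200, as all 8 have. Of the 8 intervals, 7 (87.5 percent) lay within 1.5-fold, beside 64.1 percent of all genes above that level. Ykt6, a lipid-anchored SNARE, had 0.02 ± 0.17 at a mean level of 1838 normalized counts in the authors' deposited table (adjusted p = 0.992), and Gosr2, or membrin, had 0.05 ± 0.17 at 1591. Gosr1, Sec22a, Sec22b, Bet1 and Bet1l had values between -0.07 and 0.02 in the authors' deposited table.

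Sec22c was the exception in that group. It encodes a membrane protein of the ER and lies on the minus strand of chromosome 9 (121680045 to 121705490, GRCm38). Its log2 fold change was -0.52 ± 0.24 at a mean level of 265 in the authors' deposited table, with a DESeq2 adjusted p = 0.468 (unadjusted p = 0.0295). For groups of equal size this mean and fold change imply about 312 normalized counts in control and 218 in knockout. The interval runs from 0.50 to 0.97 times control. Per kb of exon Sec22c is the least abundant gene of its group, with 45.8 per kb against 340 per kb for Sec22b.

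Of the 6 syntaxin-binding proteins, 2 were positive and 4 negative, with a median of -0.14, and 0 passed. Stxbp2 had -0.11 ± 0.15 at a mean level of 2990 normalized counts in the authors' deposited table (adjusted p = 0.931), an interval of 0.76 to 1.14 times control. Stxbp3, or Munc18c, the partner of syntaxin-4, had 0.15 ± 0.16 in the authors' deposited table. Stxbp5, or tomosyn, which competes with vesicle SNAREs, had 0.10 ± 0.18, and Stxbp4, an insulin-regulated partner of syntaxin-4, had -0.24 ± 0.22 in the authors' deposited table.

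Stxbp6, or amisyn, binds syntaxins through a SNARE-like motif and holds back fusion. In control the deposited mean and fold change imply 1192 normalized counts and in knockout 857, if both groups weigh equally. The log2 fold change was -0.48 ± 0.20 at a mean level of 1025 in the authors' deposited table, with a DESeq2 adjusted p = 0.378 (unadjusted p = 0.0171). The interval of 0.55 to 0.94 times control, not adjusted for the number of genes, lies below the control level. The gene covers 44852484 to 45074709 on the minus strand of chromosome 12 (GRCm38). Of the 5 members at an unadjusted p under 0.05, Stxbp6 has the highest mean level.

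Stxbp3-ps, the pseudogene on chromosome 19 (9557792 to 9559183, GRCm38), had 0.19 ± 0.18 at a mean level of 289 in the authors' deposited table. Its transcript is 98.9 percent identical to the Stxbp3 transcript over 757 aligned positions, so the counting could have split reads between them, and both values are uncertain for that reason. Their values lie within 1 SE of each other. Without the pseudogene the median log2 fold change of the members was -0.05 as well.

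Synaptotagmins, a family that includes calcium sensors of fusion, were mostly of low abundance. The median mean level of the 8 listed genes was 47.0 normalized counts, their median SE was 0.48, and 0 of the 8 intervals lay within 1.5-fold. Syt7, a sensor of high calcium affinity that acts in lysosome exocytosis, had the highest mean level of the group, 1017 normalized counts, and a value of -0.06 ± 0.27 in the authors' deposited table (adjusted p = 0.982). Its SE is larger than that of 92.8 percent of the 500 genes nearest in mean level. Syt11, Syt12, Syt9 and Syt17 had values from 0.05 to 0.27 in the authors' deposited table, with SEs from 0.26 to 0.68.

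Syt15 stood apart by its precision. Per kb of exon its level, 146 per kb, was close to the 141 per kb of Syt7. At a mean level of 612 normalized counts its log2 fold change was -0.72 ± 0.67 in the authors' deposited table (adjusted p = 0.855), and its interval reaches from 0.24 to 1.51 times control. The SE is larger than that of 99.0 percent of the 500 genes nearest in mean level, whose median SE is 0.19. Neither a fall to 0.25 times the control level nor a rise of 1.5-fold is left out by these data. The gene lies on the plus strand of chromosome 14 (34219595 to 34230420, GRCm38).

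**Figure D3:**
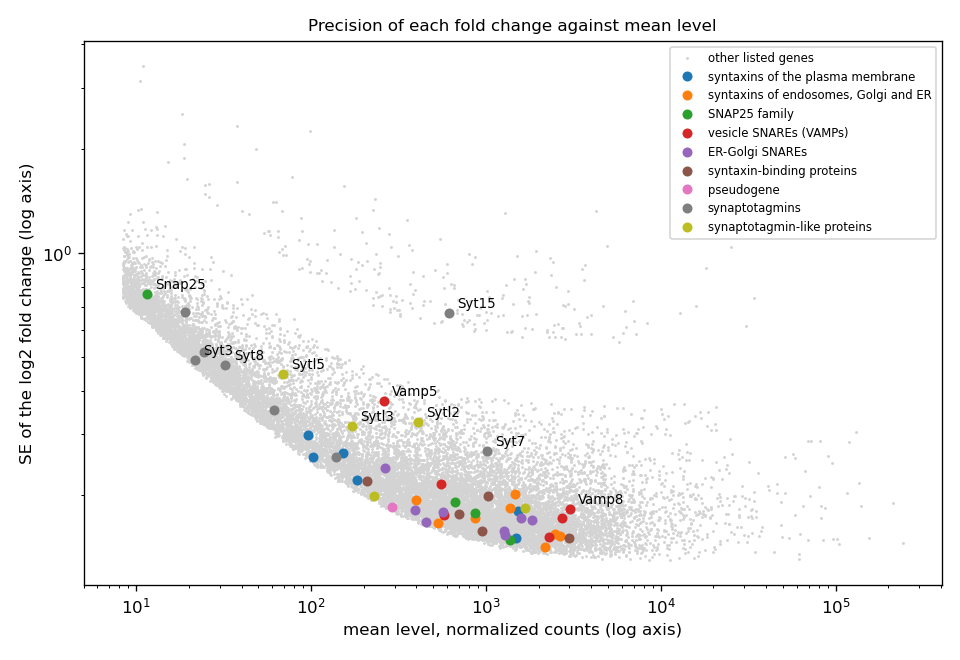
The SE of the log2 fold change is plotted against mean level, both on log axes, for all listed genes (grey) and 51 of the members (coloured by role). Of all 52 members, 29 have an SE below the median of the 500 genes nearest in mean level, whereas Syt15, with an SE of 0.67 at a mean level of 612, lies in a thin upper band, and Vamp5, Sytl2 and Syt7 lie near the top of the main cloud.

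Syt3 and Syt8 had the lowest values of the synaptotagmins. Syt3 had -1.10 ± 0.49 at a mean level of 21.6 normalized counts in the authors' deposited table, with a DESeq2 adjusted p = 0.439 (unadjusted p = 0.025). Syt8 had -0.997 ± 0.476 at a mean level of 32.3 in the authors' deposited table, with a DESeq2 adjusted p = 0.497 (unadjusted p = 0.0362). The implied levels are about 29.5 in control and 13.7 in knockout for Syt3, and 43.1 and 21.6 for Syt8, all low. Both genes lie on the plus strand of chromosome 7 in GRCm38, Syt3 at 44384102 to 44400187 and Syt8 at 142434850 to 142440396. Both are left out when genes below a mean level of 50 are dropped, which leaves 3 members at an unadjusted p under 0.05.

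Synaptotagmin-like proteins bind Rab27 on secretory vesicles and anchor them at the plasma membrane. Of the 5 genes, 4 had negative values, with a median of -0.31, and 0 passed. Sytl2, which encodes Slp2, was the member nearest to the threshold. Its log2 fold change was -0.94 ± 0.33 at a mean level of 409 normalized counts in the authors' deposited table, with a DESeq2 adjusted p = 0.173 (unadjusted p = 0.00382). The mean and the fold change imply about 538 normalized counts in control and 280 in knockout. The interval is 0.33 to 0.81 times control, and the SE is larger than that of 94.6 percent of the 500 genes nearest in mean level. The gene lies on the plus strand of chromosome 7 (90302252 to 90410719, GRCm38).

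Sytl1, the abundant member of this group, had -0.31 ± 0.18 at a mean level of 1675 normalized counts in the authors' deposited table (adjusted p = 0.662), an interval of 0.63 to 1.04 times control. Sytl4, or granuphilin, known from insulin granules, had -0.05 ± 0.20, Sytl3 had 0.04 ± 0.32, and Sytl5 had -0.52 ± 0.45 in the authors' deposited table. The Rab27 genes they bind had negative values too, Rab27b at -0.50 ± 0.27 and Rab27a at -0.32 ± 0.24 in the authors' deposited table, neither past the test (adjusted p = 0.588 and 0.778).

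The rest of the fusion machinery, 41 listed genes of 52 on a list of textbook components, was read in the same way. Of these, 0 passed DESeq2 at an adjusted p of 0.05 by the authors' deposited table, against 1.08 percent of all genes. At an unadjusted p under 0.05, 1 was higher and 2 were lower, against 5.23 and 3.83 percent of all genes. The median log2 fold change was -0.07, beside -0.01 over all listed genes, and 11 of the 41 values (26.8 percent) were positive, beside 48.8 percent of all genes. Factors that take SNARE complexes apart had values near 0, the ATPase gene Nsf at -0.12 ± 0.16 and its adaptor gene Napa at 0.02 ± 0.14 with a mean level of 3079, in the authors' deposited table. The 4 further SNAREs had values from -0.21 to -0.03, the most abundant by mean level being Use1 of the ER (-0.10 ± 0.15 at 2195 normalized counts in the authors' deposited table).

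Of the other Sec1/Munc18 proteins, Scfd1 had the highest mean level, 1494 normalized counts, and a value of -0.04 ± 0.15 in the authors' deposited table. The 11 listed priming and calcium regulators had a median of -0.01, and the vesicle priming gene Cadps2, highest in mean level, had -0.25 ± 0.20 at 3232 normalized counts in the authors' deposited table. All 10 listed Rab27 and Rab3 GTPases and effectors had negative values, with a median of -0.10, where 48.8 percent of all listed genes were positive. The median size of these log2 fold changes was 0.10, beside 0.19 over all listed genes. The list does not hold every gene that binds Rab27. The synaptotagmin-like proteins are counted apart, with 4 negative values and 1 positive, Sytl3. Mlph, melanophilin, had the highest mean level among them, 14087 normalized counts, at -0.13 ± 0.27 in the authors' deposited table. Rab3a, a GTPase of regulated secretion, had -0.56 ± 0.27 there, with a DESeq2 adjusted p = 0.51 (unadjusted p = 0.0401).

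Ferlins and extended synaptotagmins share the C2 domains of synaptotagmins and act in membrane repair and at membrane contacts. The ferlin gene Myof had -0.46 ± 0.22 at a mean level of 4010 normalized counts in the authors' deposited table, with a DESeq2 adjusted p = 0.507 (unadjusted p = 0.0392). Esyt3 had 0.35 ± 0.16 at 1238 normalized counts in the authors' deposited table, with a DESeq2 adjusted p = 0.479 (unadjusted p = 0.0314). Its relatives Esyt1 (0.01 ± 0.15) and Esyt2 (-0.02 ± 0.15) were near 0 in the authors' deposited table.

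**Figure D4:**
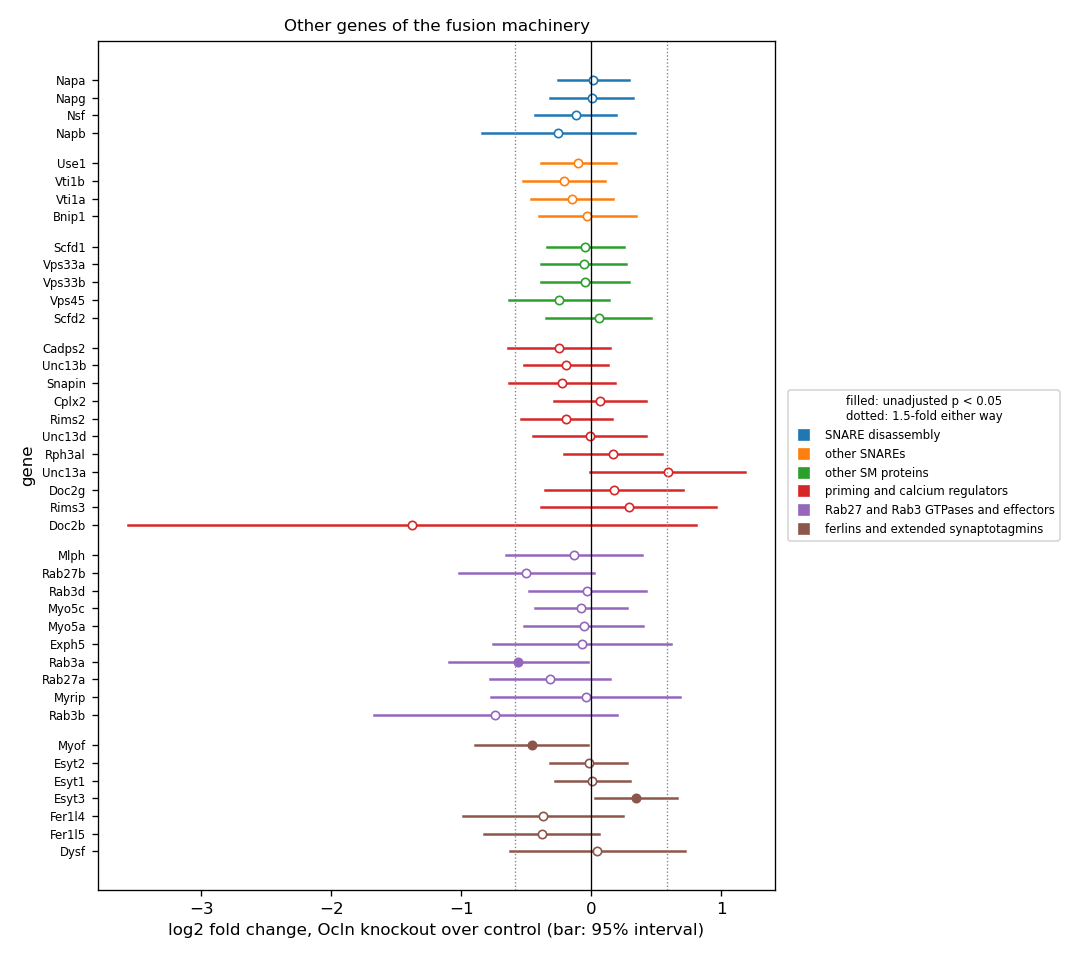
The log2 fold change of knockout over control with its 95 percent interval is shown for 41 other fusion genes, by list and in order of mean level; filled points have an unadjusted p under 0.05. All 10 points of the Rab27 and Rab3 list lie left of 0 with 9 of the 10 bars crossing it, and Doc2b has the widest bar.

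Ocln and the cell markers give the setting of these values. Ocln had -1.15 ± 0.16 in the authors' deposited table (DESeq2 adjusted p = 4.36e-09), 0.45 times the control level, so part of its signal remained in the libraries labelled knockout. On its chromosome, 13, lie 0 of the members. The luminal keratin genes Krt8 and Krt18 had mean levels of 61719 and 84084 normalized counts in the authors' deposited table, against 116 for the basal keratin gene Krt5. Levels implied for control and knockout, summed over a list, were 32685 and 48546 for 4 luminal progenitor markers, 90208 and 69793 for 6 hormone-sensing markers, and 933 and 1550 for 7 myeloid markers. They were 2004 and 1498 for 6 myoepithelial markers, 1337 and 1112 for 5 fibroblast markers, and 2517 and 2790 for 4 endothelial markers. Of the fibroblast markers 4 of 5 had positive values, with a median log2 fold change of 0.25, and the lower sum in knockout comes from Dcn alone. In the myoepithelial sums Oxtr went from 581 to 199, and in the hormone-sensing sums Prlr went from 58073 to 44137. Each of these 2 lists had 5 of 6 values negative, with medians of -0.17 and -0.35. Apart from Oxtr and Trp63 (-0.76), the myoepithelial values ran from -0.19 to 0.05. The lowest DESeq2 adjusted p of a hormone-sensing marker was 0.642. All 4 luminal progenitor markers had positive values, with a median log2 fold change of 0.61, and 3 of them had an unadjusted p under 0.05. Their lowest DESeq2 adjusted p was 0.0951, for Ehf. Single genes past an adjusted p of 0.05 among these lists were S100a8, higher, and Oxtr and Dcn, lower. Only 1 marker of lymphoid cells, 1 of adipocytes (Fabp4) and 1 of neurons (Stmn2, mean level 23.9) was listed, and 3 of Schwann cells, led by Sox10, which luminal progenitors express too. The part of these shifts in the values of the members was not tested.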

How the data were processed

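RNA of 6 libraries, 3 control and 3 Ocln knockout, was compared by the authors with DESeq2 on build mm10, per the submitters' processing notes. Not given in the sources used here: tool versions, aligner, counter and formula. The authors' deposited table holds, per the file headers, a mean level per gene (a signal in normalized counts over the libraries), a log2 fold change with its SE, the Wald score, the p-value and adjusted p-value, and another column with their call. The lowest mean level listed is 8.35. Library depths are unknown, and the SE is the measure of precision.

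No test per gene was added. Fold change divided by SE gave the score to within 2.6e-07, and the adjusted p-values a Benjamini-Hochberg adjustment over all listed genes to within 0.51 percent. Intervals are 1.96 SE. Group levels assume that mean level weighs both groups equally. Exon lengths (merged exons) and coordinates are from GENCODE M21 basic (GRCm38), matched by symbol for 16225 genes and all 52 members. The members, role groups and lists were chosen with earlier results of these data known. Named in full are members with an unadjusted p under 0.05, the 2 highest by mean level per role group, and the 3 largest and 3 smallest fold changes; of other lists, genes with an unadjusted p under 0.05 and the highest by mean level. The values of 1 member are not reported here, though it enters the counts and medians. Genes further named were chosen after their values were seen. Alternatives were other thresholds, mean level filters of 50 and 200, the authors' calls, scores scaled down by the root of the inflation factor (1.18), and scores less their median in 20 bins of exon length; the last functions were tested on simulated data. Python 3.11.15, pandas 2.3.3, scipy 1.17.1 and BLAST 2.17.0 were used.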

Additional observations from a re-analysis of the deposited data

How the results depend on the processing

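The count of 0 members called was the same at an adjusted p under 0.1, with mean level filters of 50 and 200, and after the length trend was taken out. It was also 0 at an adjusted p under 0.01, with a log2 change of 1 or more in size, and after division by the inflation. Those last settings can only remove calls, so their count of 0 was fixed in advance. By the authors' own calls it was 1, Syt3. Over all genes, the 181 calls became 107 at 0.01, 285 at 0.1, 117 with the fold size, 466 by the authors' calls and 119 after the inflation was divided out. Members lower at an unadjusted p under 0.05 numbered 5, and 3 with either mean level filter, which removes Syt3 and Syt8 by construction; the inflation and length settings each left 4, without Syt8. Members higher at that p numbered 0 under each of these 4 settings, of which only the length setting could have added any. The adjusted p of Sytl2 ran from 0.152 to 0.35, and that of the other 4 from 0.318 to 0.737. The median log2 fold change of the members lay between -0.0534 and -0.0456 with either filter and without the pseudogene, an alternative chosen after seeing the data. Leaving out Snap91, another symbol of the pattern, changed nothing, since it is not among the listed rows.

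No paired analysis was possible because values per library were not used here. For the same reason leaving out each replicate, other normalizations and other count tests were not run. What depth limits cannot be read from the table, which gives no library totals.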

Other observations

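Among the other fusion genes, 2 had an SE far above that of genes with a like mean level. Doc2b, a calcium sensor of secretion with C2 domains, had -1.38 ± 1.12 at a mean level of 64.3 normalized counts in the authors' deposited table, an SE above that of 98.6 percent of the 500 genes nearest in mean level. Fer1l4 had -0.37 ± 0.31 at 1230 normalized counts in the authors' deposited table, with 97.8 percent of its neighbours below it. Both were chosen after their values were seen.

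Some members share exon bases with another listed gene on the opposite strand, and the sources used here do not give whether reads were counted by strand. The largest shares are 19.1 percent of the exon bases of Stx18, with Nsg1 (mean level 14.1 normalized counts), and 13.0 percent of those of Syt12, with A930001C03Rik (23.4 normalized counts). Bet1l shares 7.2 percent with Ric8a, whose mean level of 1277 is above that of Bet1l. Reads from such stretches cannot be assigned to a strand from the table alone. None of the 5 members at an unadjusted p under 0.05 overlaps another listed gene that the annotation names.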
